A study of Mus musculus with 6 samples.

Results

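The D-type cyclins, the CDK inhibitors and the p53 axis were described as 10 genes of the 56691 gene identifiers in the deposited table. They were chosen by name: the transcription factor gene Trp53, its antagonist Mdm2, the Cip/Kip inhibitor genes Cdkn1a (p21), Cdkn1b (p27) and Cdkn1c (p57), the INK4 inhibitor genes Cdkn2a and Cdkn2b, and the D cyclin genes Ccnd1, Ccnd2 and Ccnd3. All 10 had a row in the table. The study compared circulating tumour micro-emboli (CTM), clusters of tumour cells that a chip retrieved from the blood of mice with breast cancer and lung metastases, with the cultured mouse mammary carcinoma line 4T1. RNA was prepared with an ultra low input kit, and each group had 3 libraries with totals of 69178212 to 71595766 deposited counts. The 4T1 cells were grown in DMEM with serum and antibiotics, and their titles give a low adherence culture. No genotype, transgene or drug is named for either group. The labels used here give no strain, age or number of mice and no pooling for the CTM libraries, and 4T1 is 1 established line.

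D cyclins bind and activate the kinases CDK4 and CDK6 in G1, which phosphorylate the retinoblastoma protein RB and release E2F transcription factors for entry into S phase. INK4 proteins block CDK4 and CDK6 directly, while p21 and p27 bind cyclin-CDK complexes and above all restrain CDK2. The transcription factor p53 induces Cdkn1a and Mdm2, and the MDM2 protein in turn marks p53 for degradation. As background, 4T1 has been widely described as lacking functional p53, and p21 can also be induced without p53.

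In the CTM libraries, RNA of the inhibitors Cdkn1a and Cdkn1b and of Mdm2 was higher than in the cultured line, by 5.33-fold, 1.84-fold and 2.01-fold. Ccnd1 RNA was 3.38-fold lower. Of the 10 genes, 7 had enough counts for testing, 3 of these rose, 1 fell and 3 did not pass. Across all 16414 tested genes, 27.9% passed the same threshold, 14.2% upward and 13.7% downward. In a fit limited to genes with at least 5 CPM in 3 libraries, 41.9% passed, 21.1% upward and 20.8% downward. In bulk libraries, fewer cells of a type and less RNA per cell cannot be told apart. The labels do not say whether replicates stem from different cultures or mice. The p-values therefore measure only how these libraries spread, which may be technical.

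The libraries within a group were not equally alike. In each group, replicates 2 and 3 were close to each other and replicate 1 stood apart, and the gap was wider in the 4T1 group. With the deposited counts divided by 4, the chi-square per gene for replicates 2 and 3 was 3.32 in the 4T1 group and 4.52 in the CTM group, against 73.4 and 75.3 for pairs with 4T1 replicate 1 and 26.3 and 26.5 for pairs with CTM replicate 1. Where leaving out 4T1 replicate 1, or averaging replicates 2 and 3 into 1 library, changed the call or the sign for any of the 10 genes, this is stated.

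The promoters of the 3 genes that rose, with that of Trp53, are shown because p53 is a known activator of Cdkn1a and Mdm2. Each line gives the 250 bases upstream of a RefSeq start (assembly GRCm38.p6), 5′ to 3′ on the gene's strand. In the lines for the Cdkn1a upstream start at chr17:29090729-29090978 (plus strand), for Mdm2 at chr10:117710759-117711008 (minus strand) and for Trp53 at chr11:69580109-69580358 (plus strand), capitals mark matches to the p53 decamer, the repeated unit of a p53 response element. In the lines for the other Cdkn1a start at chr17:29093519-29093768 (plus strand) and for Cdkn1b at chr6:134920151-134920400 (plus strand), capitals mark the GC box GGGCGG, which SP1-family factors bind.
Cdkn1a upstream start: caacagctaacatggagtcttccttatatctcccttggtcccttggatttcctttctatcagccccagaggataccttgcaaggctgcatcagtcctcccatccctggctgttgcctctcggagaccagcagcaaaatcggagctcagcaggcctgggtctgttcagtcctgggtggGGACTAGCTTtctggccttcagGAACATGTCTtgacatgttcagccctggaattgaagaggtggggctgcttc
Cdkn1a other start: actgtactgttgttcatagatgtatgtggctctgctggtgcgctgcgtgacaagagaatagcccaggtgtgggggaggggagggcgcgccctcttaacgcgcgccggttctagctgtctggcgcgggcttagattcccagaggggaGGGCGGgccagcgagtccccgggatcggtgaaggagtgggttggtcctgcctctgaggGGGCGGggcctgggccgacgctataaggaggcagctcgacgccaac
Mdm2: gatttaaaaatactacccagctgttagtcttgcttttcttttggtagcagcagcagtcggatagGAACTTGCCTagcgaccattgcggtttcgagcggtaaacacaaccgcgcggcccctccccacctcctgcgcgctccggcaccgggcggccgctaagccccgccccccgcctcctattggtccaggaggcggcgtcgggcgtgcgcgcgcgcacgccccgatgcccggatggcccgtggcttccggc
Cdkn1b: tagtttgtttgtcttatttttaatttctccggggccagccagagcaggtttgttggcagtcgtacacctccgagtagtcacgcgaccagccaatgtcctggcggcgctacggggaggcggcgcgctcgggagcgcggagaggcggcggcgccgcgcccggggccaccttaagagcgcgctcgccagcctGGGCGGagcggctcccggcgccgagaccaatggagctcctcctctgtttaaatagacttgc
Trp53: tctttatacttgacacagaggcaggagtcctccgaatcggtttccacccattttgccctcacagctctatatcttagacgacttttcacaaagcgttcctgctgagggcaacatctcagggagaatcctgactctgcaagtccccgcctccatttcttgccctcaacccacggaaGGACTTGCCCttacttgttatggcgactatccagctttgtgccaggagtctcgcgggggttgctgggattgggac
Counted back from the start, the p53 decamer matches lay at -73 and -51 in the Cdkn1a upstream window, at -186 in the Mdm2 window and at -75 in the Trp53 window. On either strand, 7.13% of 32851 promoter windows held such a match. GC boxes lay at -104 and -46 in the other Cdkn1a window, at -61 for Cdkn1b and at -104 and -88 for Mdm2. They were not limited to the genes that rose. Ccnd3, which did not pass, had GC boxes at -152 and -18 in a window and at -46 in another. Cdkn2a, which was not tested, had them at -48 and -14 in a window. Of all windows, 32.7% held a GC box. A forkhead site, ATAAACA or GTAAACA, was found at -153 in the Mdm2 window, at -243 in a window of Ccnd3, which did not pass, and in 7.1% of all windows. The hypoxia response core in its form ACGTG was found in none of the 10 windows available for 7 of the genes, against 16.6% of all windows. Its other form, GCGTG, was not searched for, and those letters stand in the printed Mdm2 window and in the other Cdkn1a window. These are matches of letters within the windows and not measured binding sites. Sequence outside the windows, introns included, was not searched, so sites there would be missed.

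Trp53 encodes p53, which is controlled mainly at the level of the protein. Its normalised count was 17.9, 33.1 and 32.6 CPM (counts scaled to the library total) in 4T1 replicates 1, 2 and 3 and 28.0, 35.1 and 35.5 CPM in the CTM replicates. 4T1 replicate 1 was low and the groups overlapped. Their means were 27.9 ± 8.65 CPM in 4T1 and 32.9 ± 4.24 CPM in CTM (SD, n = 3 each). The difference of 0.24 ± 0.24 on the log2 scale (SE) did not pass in the quasi-likelihood test of edgeR (adjusted p = 0.508), and its 95% interval ran from -0.44 to 0.92. Without 4T1 replicate 1 the log2 difference was -0.0026. A Trp53 pseudogene had 0.570 to 1.36 CPM, so few reads were assigned to that copy.

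Mdm2 encodes the ubiquitin ligase that limits p53. It measured 59.9, 53.3 and 55.1 CPM in the 4T1 libraries and 122, 108 and 108 CPM in the CTM libraries. Each CTM library exceeded each 4T1 library, and the spread within each group was small. The mean rose from 56.1 ± 3.40 to 113 ± 8.13 CPM (SD, n = 3 each). The log2 change was 1.01 ± 0.10 with an adjusted p of 0.000967 by edgeR, and it ran from 0.93 to 1.06 over 16 alternative ways of processing. Mdm2 passed in each of these 16.

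Cdkn1a encodes p21, the inhibitor that p53 and several other factors induce. It measured 11.2, 28.6 and 27.9 CPM in the 4T1 libraries and 112, 126 and 123 CPM in the CTM libraries. All CTM values were higher than all 4T1 values, and 4T1 replicate 1 was the lowest. The mean rose from 22.6 ± 9.86 to 120.4 ± 7.40 CPM (SD, n = 3 each), with a log2 change of 2.41 ± 0.34 and an adjusted p of 0.00317 by edgeR. Without 4T1 replicate 1, the log2 change was 2.09. Between the 2 libraries numbered 1 the log2 difference was 3.27, and between the means of the libraries numbered 2 and 3 it was 2.12, so the direction held in both.

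Cdkn1b encodes p27, whose protein accumulates in resting cells. It measured 104, 89.8 and 86.9 CPM in the 4T1 libraries and 178, 168 and 171 CPM in the CTM libraries. The groups did not overlap, and replicate 1 was the highest in each. The mean rose from 93.5 ± 9.01 to 172 ± 5.08 CPM (SD, n = 3 each), with a log2 change of 0.88 ± 0.10 and an adjusted p of 0.00139 by edgeR. The log2 change lay between 0.80 and 0.96 in the 16 alternatives.

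The remaining inhibitors were at or near 0. Cdkn1c, the imprinted gene for p57, had 0, 4 and 0 deposited counts in the 4T1 libraries and 6, 0 and 4 in the CTM libraries. These counts were below the filter, so Cdkn1c was not tested. Cdkn2a was listed at 0 in all 6 libraries. Its row covers both p16 (INK4A) and p19Arf, the MDM2 inhibitor, which cannot be separated here. Cdkn2b, the gene for p15, was also listed at 0 in all 6 libraries. A count of 0 allows up to 3 counts, or 0.0419 to 0.0434 CPM per library. Low counts in the table pile up at multiples of 4, and if 4 counts stand for 1 fragment the limit is 12 counts, or 0.168 to 0.173 CPM. These limits cover counting error only.

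The genes around Cdkn2a and Cdkn2b were looked up after their values were seen, in the order of the protein-coding genes of RefSeq on chromosome 4. Mtap, the gene for methylthioadenosine phosphorylase and the direct neighbour of Cdkn2a in this order, was abundant. It measured 503, 659 and 643 CPM in the 4T1 libraries and 275, 308 and 324 CPM in the CTM libraries. Its CTM values were all lower, by 1.99-fold on the fitted scale, with a log2 change of -0.99 ± 0.13 (adjusted p = 0.00233 by edgeR). Ifna4, Ifna1 and Ifne on the far side of Mtap were listed at 0 in every library. On the other side, Dmrta1, Elavl2 and Izumo3 were also listed at 0, and Zfp352 had 10 counts in CTM replicate 1 and 0 elsewhere. The table thus lists 0 for Cdkn2a and Cdkn2b in both groups beside an abundant neighbour.

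Ccnd1, the gene for cyclin D1, was by far the most abundant of the D cyclins. It measured 638, 1598 and 1580 CPM in the 4T1 libraries and 345, 387 and 399 CPM in the CTM libraries. Every CTM value was below every 4T1 value, but 4T1 replicate 1 lay much closer to the CTM libraries than 4T1 replicates 2 and 3 did. The mean fell from 1272 ± 549 to 377 ± 28.3 CPM (SD, n = 3 each), with a log2 change of -1.76 ± 0.33 and an adjusted p of 0.00853 by edgeR. Without 4T1 replicate 1 the log2 change was -2.08. It was -0.89 between the libraries numbered 1 and -2.01 between the means of the libraries numbered 2 and 3. Lto1, which overlaps Ccnd1 on the opposite strand, had 8.75 to 11.4 CPM.

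Ccnd2, the gene for cyclin D2, measured 45.4, 77.4 and 84.6 CPM in the 4T1 libraries and 63.5, 78.8 and 78.1 CPM in the CTM libraries. The groups overlapped, and replicate 1 was the lowest in each. Means were 69.1 ± 20.8 and 73.5 ± 8.64 CPM (SD, n = 3 each), and the log2 difference of 0.09 ± 0.23 did not pass (adjusted p = 0.809 by edgeR). Its 95% interval, from -0.55 to 0.72, left room for changes of up to 1.65-fold upward. Without 4T1 replicate 1 the log2 difference was -0.14, and Ccnd2 passed in 0 of the 16 alternatives, which included DESeq2 and limma.

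Ccnd3, the gene for cyclin D3, measured 74.3, 68.4 and 64.2 CPM in the 4T1 libraries and 84.1, 63.2 and 68.5 CPM in the CTM libraries. The ranges overlapped. Means were 68.9 ± 5.04 and 71.9 ± 10.9 CPM (SD, n = 3 each), and the log2 difference of 0.06 ± 0.13 did not pass (adjusted p = 0.760 by edgeR). Its 95% interval ran from -0.30 to 0.42, and the difference was 0.12 without 4T1 replicate 1. Bysl, which overlaps Ccnd3 on the opposite strand, had 16.5 to 19.98 CPM in 4T1 and 6.78 to 10.7 CPM in CTM. No source used here gives the strand used for counting, so reads in the overlap cannot be assigned with certainty.

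**Figure D1:**
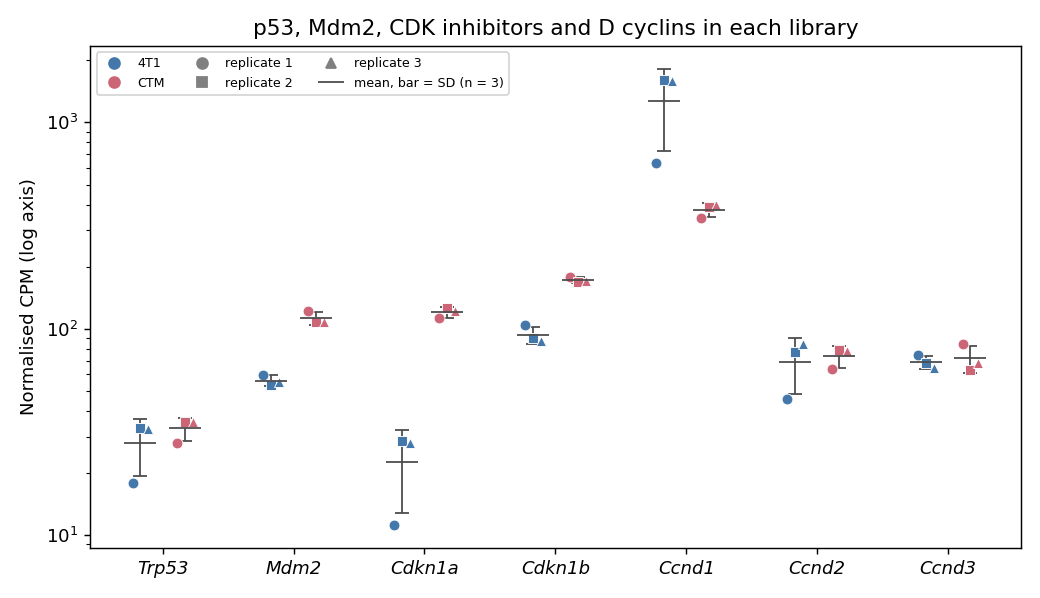
Normalised CPM (log axis) of the 7 tested genes in each library, with 4T1 in blue and CTM in red, symbols for replicate numbers, and the mean with its SD (n = 3) in grey. Mdm2, Cdkn1a and Cdkn1b lie higher in all 3 CTM libraries, Ccnd1 lies lower, and Trp53, Ccnd2 and Ccnd3 overlap, with 4T1 replicate 1 apart for Trp53, Cdkn1a, Ccnd1 and Ccnd2.

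The groups did not overlap for any of the 4 genes that passed. Over all tested genes, the groups did not overlap for 48.3%, with CTM above for 24.8% and below for 23.5%. The same 4 genes passed in 15 of the 16 alternatives, in which 13.9% to 55.7% of all tested genes passed. The exception averaged replicates 2 and 3 of each group into 1 library, where 2.86% of all genes passed. Cdkn1a and Mdm2 then passed with adjusted p of 0.0485 and 0.0472 by edgeR, while Cdkn1b and Ccnd1 did not, with 0.0596 and 0.0891.

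**Figure D2:**
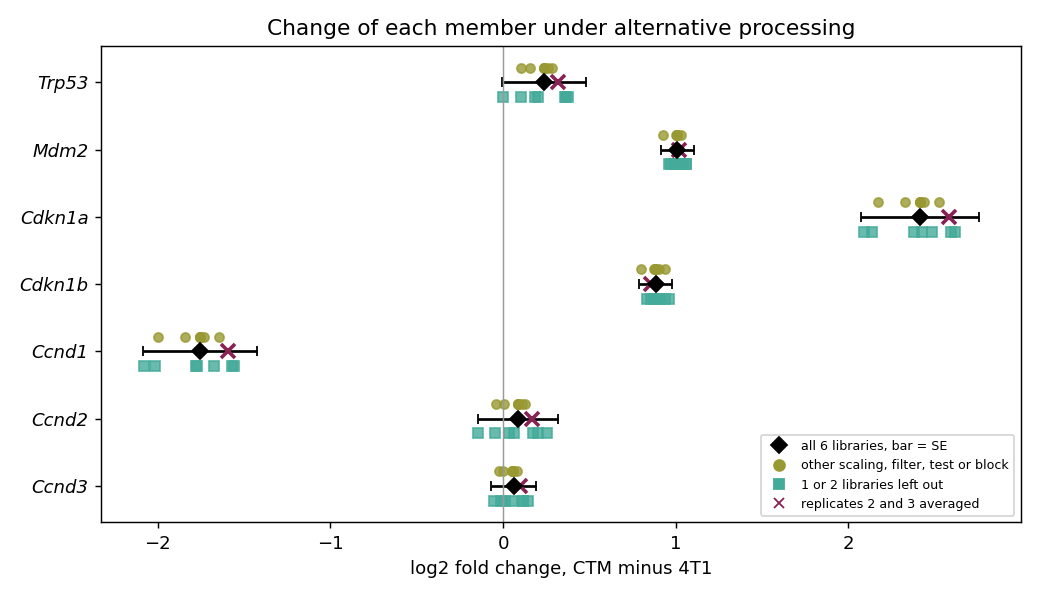
The log2 fold change (CTM minus 4T1) of the 7 tested genes with all 6 libraries (black, bar = SE), under another scaling, filter, test or block (olive), with 1 or 2 libraries left out (green) and with replicates 2 and 3 averaged (purple). Cdkn1a stays between 2.09 and 2.62, Mdm2 between 0.93 and 1.06, Cdkn1b between 0.80 and 0.96 and Ccnd1 between -2.08 and -1.56, while the values of Trp53, Ccnd2 and Ccnd3 reach or cross 0.

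Levels can be compared between genes per length, as normalised CPM per kb of annotated exon. In the 4T1 group the mean level of Ccnd1 was 270 CPM per kb. Cdkn1b followed with 20.5 and Mdm2 with 11.0 CPM per kb. Ccnd3, Ccnd2, Trp53 and Cdkn1a came last with 7.86, 7.35, 6.89 and 6.35 CPM per kb, and neighbours in this order overlapped. In the CTM group Ccnd1 again came first with 80.0 CPM per kb. Cdkn1b with 37.9 and Cdkn1a with 33.9 CPM per kb came next, and their libraries did not overlap. Mdm2 had 22.2 CPM per kb, and Ccnd3, Trp53 and Ccnd2 had 8.20, 8.12 and 7.81 CPM per kb with overlapping libraries. The last place of Cdkn1a in 4T1 rested on replicate 1, with 3.15 CPM per kb. In replicates 2 and 3 it had 8.05 and 7.86 CPM per kb, above Ccnd3 with 7.79 and 7.32. In the CTM libraries only Ccnd1 and Cdkn1b had higher levels than Cdkn1a.

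Cyclin D1 RNA made up most of the D cyclin RNA per length in each library. Its share of the summed level of Ccnd1, Ccnd2 and Ccnd3 was 91.1%, 95.5% and 95.4% in the 4T1 libraries and 81.8%, 84.1% and 84.0% in the CTM libraries. All CTM shares were lower. The sum itself was 149, 355 and 352 CPM per kb in 4T1 and 89.5, 97.8 and 101 CPM per kb in CTM. Within a library, the log2 ratio of Ccnd2 to Ccnd1 CPM averaged -4.12 ± 0.29 in 4T1 and -2.36 ± 0.07 in CTM (SD, n = 3 each), a 3.41-fold difference. For Ccnd3 to Ccnd1 the difference was 3.23-fold. An exact two-sided permutation test gave p = 0.1 for each, the smallest that 3 against 3 libraries allow, and 0.15 after adjustment over the 3 ratios. The ratio of Ccnd3 to Ccnd2 differed by -0.08 on the log2 scale, with an exact p of 0.8.

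**Figure D3:**
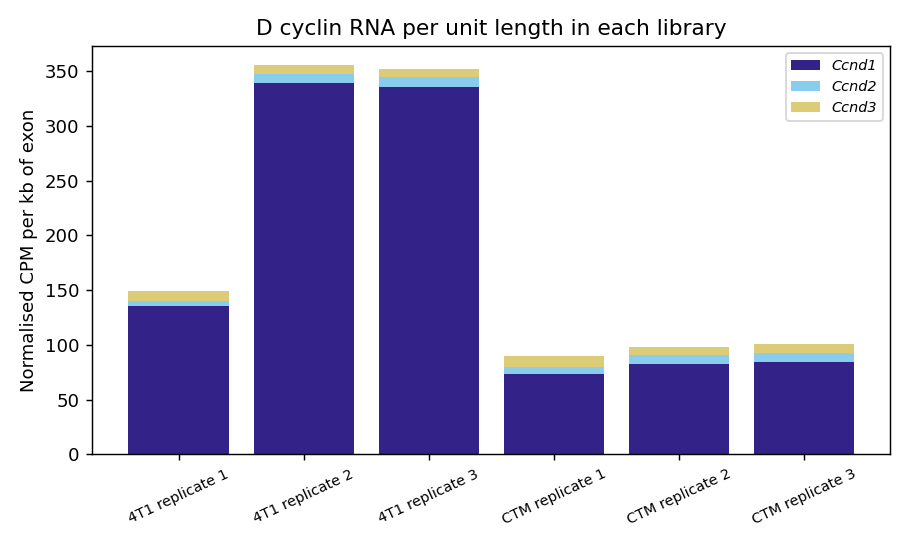
Stacked bars give the normalised CPM per kb of exon of Ccnd1, Ccnd2 and Ccnd3 in each of the 6 libraries. Ccnd1 fills most of every bar; the sums are 149, 355 and 352 in 4T1 and 89.5, 97.8 and 101 in CTM, and 4T1 replicate 1 is the lowest of its group.

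Around the 10 genes, 6 lists of other genes of the pathway were counted in the same fit. For the kinases that D cyclins and inhibitors act on, with their partners and the other INK4 genes, 5 of 16 tested genes fell and 0 rose in edgeR, with 6 and 0 at an unadjusted p below 0.05, which 40.8% of all tested genes reached in either direction. DESeq2 called 0 higher and limma 1. The share that fell was 31.2%, against 13.7% of all tested genes and 20.8% of all genes in the fit limited to at least 5 CPM in 3 libraries. The list's median log2 change was -0.18, against -0.02 over all tested genes. Ccne1, the gene for cyclin E1, measured 7.81, 7.50 and 7.86 CPM in 4T1 and 2.76, 2.01 and 2.18 CPM in CTM (log2 change -1.74 ± 0.19, adjusted p = 0.00140 by edgeR). Ccna2, the gene for cyclin A2, and Cks1b, a cofactor of p27 degradation, also fell, with log2 changes of -1.44 and -0.93. The others that fell were Cdk2 at -0.67 and Cdkn2c (p18) at -0.52, named after their values were seen.

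The direct partners of the D cyclins did not pass with all 6 libraries. Cdk4 measured 251, 328 and 331 CPM in 4T1 and 242, 285 and 273 CPM in CTM (adjusted p = 0.335), and Cdk6 measured 75.4, 132 and 139 against 103, 122 and 126 CPM (adjusted p = 0.967 by edgeR). The groups overlapped for both. Without 4T1 replicate 1, the log2 difference of Cdk4 was -0.31 and passed (adjusted p = 0.0263 by edgeR). In that fit 39.3% of all tested genes passed, against 27.9% with all 6 libraries. Cdk4 passed lower in 3 of the 16 alternatives. Ccne2, the gene for cyclin E2, had a log2 difference of -0.70 and an adjusted p of 0.0644. It passed in 6 of the 16 alternatives, among them DESeq2 (adjusted p = 0.0169) and the fit without 4T1 replicate 1 (log2 difference -0.93, adjusted p = 0.00164 by edgeR). With DESeq2, 37.6% of all tested genes passed.

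Downstream, in the list of RB and E2F family genes, 10 of 19 tested genes fell and 0 rose in edgeR, with 10 and 2 at an unadjusted p below 0.05, and DESeq2 and limma called 2 and 3 higher. The share that fell was 52.6%, against 13.7% of all tested genes, and the median log2 change was -0.58. With a minimum of 5 CPM in 3 libraries, 20.8% of all genes fell. Foxm1, an activator of mitotic genes, measured 155, 213 and 209 CPM in 4T1 and 47.2, 52.4 and 53 CPM in CTM (log2 change -1.92 ± 0.14, adjusted p = 0.000551 by edgeR). E2f7, a repressor among the E2Fs, and Tfdp1, the E2F dimer partner, fell by 1.75 and 1.15 on the log2 scale. Rb1 itself measured 38.2, 26.0 and 20.5 CPM in 4T1 and 36.3, 34.5 and 34.1 CPM in CTM. The groups overlapped only through 4T1 replicate 1, and Rb1 did not pass (log2 difference 0.31, adjusted p = 0.330 by edgeR). Without that library the difference was 0.59 and passed (adjusted p = 0.00926 by edgeR), in a fit where 39.3% of all tested genes passed. Rb1 passed in 3 of the 16 alternatives.

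Among regulators of p53, 6 of 24 tested genes rose and 3 fell, with a median log2 change of 0.23. The shares were 25% and 12.5%, against 14.2% and 13.7% of all tested genes. In the fit limited to genes with at least 5 CPM in 3 libraries, 21.1% and 20.8% of all genes passed. Rchy1, another ubiquitin ligase for p53, measured 34.1, 36.2 and 36.1 CPM in 4T1 and 67.1, 56.9 and 54.6 CPM in CTM (adjusted p = 0.00363 by edgeR). Rpl11 and Rpl23, ribosomal protein genes whose products can bind MDM2, rose by 0.45 and 0.63 on the log2 scale. Ribosomal protein genes have many processed pseudogenes, so their counts are less certain. The checkpoint kinase genes Chek1 and Chek2 fell by 1.53 and 1.07, and Wrap53, a neighbour of Trp53 on the opposite strand, fell by 0.81. Mdm4, the MDM2 relative that also inhibits p53, measured 74.3, 85.7 and 78.5 CPM in 4T1 and 96.6, 93.7 and 94.3 CPM in CTM. Its CTM values were all higher, with a log2 difference of 0.26 and an adjusted p of 0.0686. It passed in 5 of the 16 alternatives, among them DESeq2 (adjusted p = 0.0310) and the fit without 4T1 replicate 1 (adjusted p = 0.0471 by edgeR). In these fits 37.6% and 39.3% of all tested genes passed. Trp63 stayed below 1 CPM in all 6 libraries and did not pass, and Trp73 was too low for testing.

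Of 37 tested genes known as p53 targets, other than Cdkn1a and Mdm2, 16 rose and 4 fell, and the median log2 change was 0.31. The shares were 43.2% and 10.8%, against 14.2% and 13.7% of all tested genes. With a minimum of 5 CPM in 3 libraries, 21.1% of all genes rose and 20.8% fell. Fas, a death receptor gene, measured 11.5, 12.2 and 12.5 CPM in 4T1 and 29.0, 30.4 and 29.8 CPM in CTM (log2 change 1.30 ± 0.11, adjusted p = 0.000689 by edgeR). Sesn2, a stress sensor of the sestrin family, and Gadd45a, a growth arrest gene, rose by 1.35 and 1.12. As background, both are also known to respond to the stress factor ATF4. The other genes that rose were Ccng1, Phlda3, Trp53inp1, Plk3, Rrm2b, Xpc, Ephx1, Ercc5, Slc19a2, Tnfrsf23, Cd82, Tap1 and Bbc3. Those that fell were Pidd1 at -1.50, Ckap2 at -1.15, Bcl2l1 at -0.87 and Aen at -0.95. These further names, like Ddb1 and Dmtf1 in the lists that follow, were added after the values were seen.

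Other well-known p53 targets did not pass, and they were picked out after their values were seen. Bax, a pro-apoptotic gene, measured 42.2, 32.0 and 30.0 CPM in 4T1 and 33.8, 34.6 and 33.8 CPM in CTM (adjusted p = 0.911). Zmat3, an RNA-binding protein gene, differed by -0.06 on the log2 scale with overlapping groups. Sesn1 measured 70.0, 23.1 and 23.7 CPM in 4T1 and 20.5, 16.7 and 16.5 CPM in CTM, and 4T1 replicate 1 stood far above the rest (adjusted p = 0.0972 by edgeR). The list held genes in both directions beside the rise of Cdkn1a and Mdm2.

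In the list of genes that control the turnover of D cyclins and p27, 2 of 21 rose and 4 fell, with a median log2 change of -0.06. The shares of 9.52% and 19.0% were near those of all tested genes, 14.2% and 13.7%. Skp2, the F-box protein that marks p27 for degradation, measured 36.4, 66.9 and 60.9 CPM in 4T1 and 18.4, 21.2 and 21.5 CPM in CTM, all lower (log2 change -1.43 ± 0.23, adjusted p = 0.00482 by edgeR). Fzr1, an activator of the anaphase-promoting complex, and Usp2, a deubiquitinase for cyclin D1, fell by 0.77 and 1.22, and Ddb1 fell by 0.33. Gsk3b, the kinase that marks cyclin D1 for degradation, rose from 73.6 ± 0.712 to 108 ± 5.44 CPM (SD, n = 3 each; adjusted p = 0.00362 by edgeR). Usp22, another deubiquitinase, rose by 0.69, but its call was lost in 7 of the 16 alternatives. These included leaving out 4T1 replicate 2 or CTM replicate 1, 2 or 3 (adjusted p of 0.0512 to 0.0694 by edgeR) and the replicate block (adjusted p = 0.0721). Without both libraries numbered 1 its log2 change was 0.39.

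Among transcription factors and chromatin regulators that act on the inhibitor genes, 5 of 28 rose and 1 fell, with a median log2 change of 0.05. The share that rose, 17.9%, was near the 14.2% of all tested genes, and the share that fell was 3.57% against 13.7%. Ddit3, the stress factor CHOP, measured 6.84, 10.6 and 10.2 CPM in 4T1 and 172, 167 and 166 CPM in CTM (log2 change 4.19 ± 0.19, adjusted p = 0.000128 by edgeR). Foxo3, a known activator of Cdkn1b, measured 123, 90.7 and 88 CPM in 4T1 and 189, 193 and 205 CPM in CTM (log2 change 0.96, adjusted p = 0.00365 by edgeR). Ets2 rose by 0.82 and Dmtf1 by 0.56. Ets1 fell by 0.51, and without CTM replicate 3 its call was lost (adjusted p = 0.0668 by edgeR).

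The rule for names picked 27 genes that passed in these lists. With replicates 2 and 3 averaged into 1 library, 6 of them passed, namely Ddit3, E2f7, Fas, Foxm1, Gadd45a and Sesn2.

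**Figure D4:**
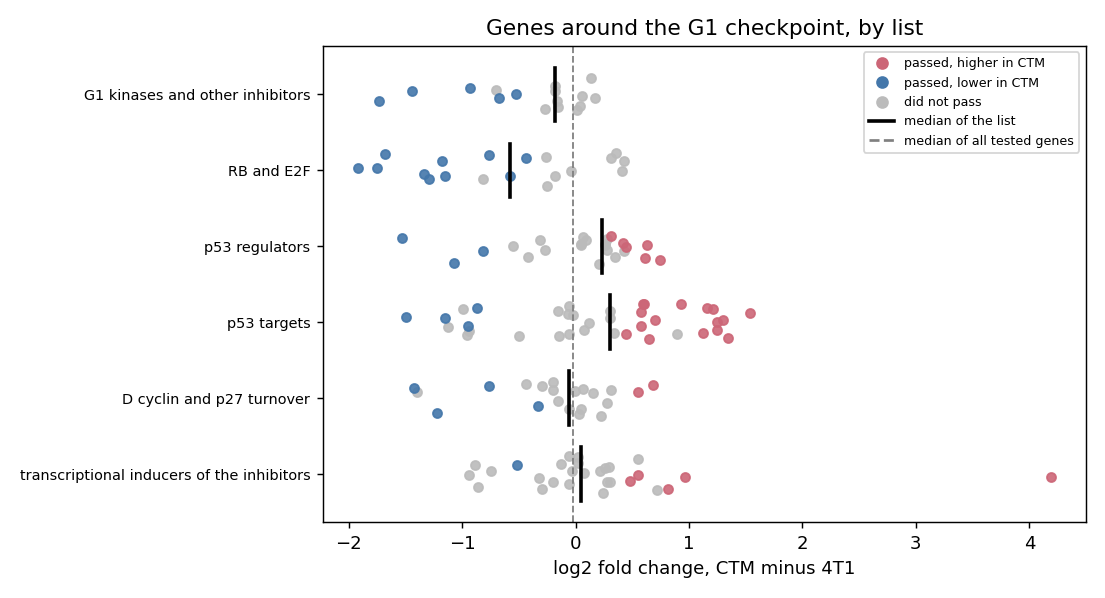
Each point is the log2 fold change (CTM minus 4T1) of 1 tested gene in the 6 pathway lists, red where it passed higher, blue where it passed lower and grey where it did not pass; black bars are list medians and the dashed line is the median of all tested genes. The RB and E2F list has its median at -0.58 and the p53 targets at 0.31, and Ddit3 stands at 4.19.

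Over the 6 libraries, the log2 CPM of each tested gene was also set against 143 genes of the pathway lists. With 3 libraries of each group, such likeness mostly follows the group difference, and it is given as a description. Mdm2 was most like Phlda3 and Cd82 (Pearson r = 0.99 each) and most unlike Foxm1. Cdkn1b was most like Tnfrsf23 and Cd82 (r = 0.99 each) and also most unlike Foxm1. Cdkn1a was closely like Sesn2 (r = 0.99) and most unlike Ets1 (r = -0.99). Ccnd1 was most like Cdk2 and Rbl1 (r = 0.99 each) and most unlike Trp53inp1.

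The genes that did not pass had other neighbours. Trp53 was most like Myc (r = 0.98) and Atf4 (r = 0.96) and most unlike Hif1a (r = -0.98). Ccnd2 was most like Cdk6 (r = 0.99) and Myc (r = 0.95), and most unlike Hif1a (r = -0.94). Ccnd3 was most like Cdkn2d (r = 0.86) and Id1 (r = 0.81), and most unlike Rbx1 (r = -0.93). For Trp53 and Ccnd2, 4T1 replicate 1 was the lowest point.

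The labelled cell type was checked against markers, and 5 lists of markers of epithelial and other cells and 1 of dividing cells were summed. Epithelial markers summed to 1855 to 2233 CPM in 4T1 and 1663 to 1773 CPM in CTM, with Krt8 at 761 ± 24.5 and 558 ± 21.2 CPM (SD, n = 3 each), and none of the 8 was at 0 in all libraries. Of 7 tested, 1 rose and 3 fell. For this and the other marker lists, the shares of all tested genes were 14.2% higher and 13.7% lower. Leukocyte markers summed to 28.2 to 85.6 CPM in 4T1 and 31.4 to 38.5 CPM in CTM. Ly6g was at 0 throughout, and Ptprc, which defines leukocytes, had 0 to 0.277 CPM in 4T1 and 0.161 to 1.34 CPM in CTM. Platelet markers summed to 3.39 to 5.35 CPM in 4T1 and 8.13 to 11.5 CPM in CTM, with 2 of 4 tested higher, or 50%. Tubb1 was at 0 and Pf4 stayed at or below 0.236 CPM, so these sums came mostly from other platelet markers. Erythroid markers summed to 2.55 to 9.03 CPM in 4T1 and 3.08 to 3.90 CPM in CTM. Markers of endothelium and fibroblasts summed to 34.1 to 55.9 CPM in 4T1 and 19.9 to 22.2 CPM in CTM, and 3 of 6 tested fell.

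Markers of dividing cells were lower in the CTM libraries, as was Ccnd1, where Cdkn1a and Cdkn1b were higher. They summed to 2614 to 3856 CPM in 4T1 and 1426 to 1582 CPM in CTM. All 10 fell, against 13.7% of all tested genes. Mki67 went from 660 ± 112 to 277 ± 20.8 CPM (SD, n = 3 each, adjusted p = 0.00147 by edgeR). Within the 4T1 group, replicate 1 was also the lowest for Mki67, at 533 CPM against 706 and 743 CPM, as it was for Ccnd1. That library was the lowest for Cdkn1a too, at 11.2 CPM against 28.6 and 27.9 CPM. For Cdkn1b it was the highest, at 104 CPM against 89.8 and 86.9 CPM. The part of these cell type and proliferation differences in the results for the 10 genes was not tested.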

How the data were processed

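Each group had 3 libraries, made with an ultra low input kit. In their processing notes the submitters list build mm8, Bowtie 0.12.2, HISAT2 2.0.4 and edgeR without roles, and no source used here gives the counter or its annotation. The authors deposited estimated counts per Ensembl gene, already whole and not scaled to a fixed total. Low values cluster at multiples of 4 (4T1 replicate 1 has 956 genes at 4 counts, 391 at 3 and 320 at 5), so counting error may exceed what the totals imply. The design had assumed plain counts, and its test was kept.

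Libraries were grouped by their descriptions. The filterByExpr filter kept 16414 of 56691 identifiers, and TMM factors were 0.952 to 1.04. All 6 libraries entered a two-sided quasi-likelihood test (edgeR 4.0.16, R 4.3.3) with group as its term and no block, adjusted by Benjamini-Hochberg over all tested genes at 0.05. The 95% intervals use 4 residual degrees of freedom. Log2 differences within replicate numbers and D cyclin ratios used a prior of 0.5 CPM. Symbols were found for 52073 identifiers. Exon lengths and overlaps come from GENCODE M21. Promoters come from RefSeq, on another build than the submitters name, so their coordinates are given for the printed windows only and were not used with the counts. DESeq2 1.42.0, limma 3.58.1 with voom, other filters and scalings, left-out libraries and a replicate block were alternatives. The fit was also run on simulated independent counts, without the uneven replicates or the piling at multiples of 4. That run cannot show how these features affect the calls.

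The 10 genes and all lists were chosen with earlier results of these data known. By rule, the text names all 10 members, per list at most 3 genes that rose and 3 that fell, taken by p, a fixed set around CDK4, CDK6, RB and p53, the genes most alike in pattern, and 5 markers. Further genes, marked as such, were named after their values were seen. Lin54 is not analysed here. Ddit3 has more than 1 identifier, and the lower number was used. The values of some list members are not reported here.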

Additional observations from a re-analysis of the deposited data

How the results depend on the processing

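Of the 10 genes, the same 3 rose and the same 1 fell whichever single library was left out (3 to 3 and 1 to 1), and in every other alternative but 1. With replicates 2 and 3 averaged, 2 rose and 0 fell, at 276 higher and 200 lower over all genes; G1 kinases had 0 lower, RB and E2F 2 lower, p53 regulators 0 and 0, p53 targets 4 and 0, turnover 0 and 0, and inducers 1 and 0 (higher and lower). With limma voom, 4514 and 4628 genes passed; G1 kinases had 1 higher and 10 lower, RB and E2F 3 higher, regulators 15 higher, targets 10 lower, turnover 6 and 8, and inducers 11 and 7. Without both libraries numbered 1, 4239 and 4340 passed; G1 kinases had 1 higher and 12 lower, RB and E2F 2 higher, regulators 15 higher, targets 10 lower, turnover 6 and 8, inducers 11 and 8, and the Ccnd3 to Ccnd2 log2 ratio difference became 0.0342. RB and E2F had 2 higher with DESeq2 and 1 higher with a minimum of 5 CPM. The cause was not tested.

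Leaving out single libraries gave 1334 to 3323 genes higher and 1208 to 3326 lower, lowest without CTM replicate 2 and highest without 4T1 replicate 1; G1 kinases 3 to 7 lower, RB and E2F 0 to 2 higher and 8 to 12 lower, regulators 3 to 11 higher and 3 to 3 lower, targets 11 to 19 higher and 3 to 6 lower, turnover 1 to 6 higher and 3 to 6 lower, and inducers 4 to 9 higher and 0 to 4 lower. The log2 ratio differences ran from 1.65 to 1.93 for Ccnd2 to Ccnd1, 1.43 to 2.19 for Ccnd3 to Ccnd1 and -0.30 to 0.25 for Ccnd3 to Ccnd2.

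Genes that did not pass changed sign: Trp53 to -0.0026 (single libraries left out, -0.0026 to 0.38); Ccnd2 to -0.0416 with voom and -0.04685 without both libraries numbered 1 (-0.14 to 0.26); Ccnd3 to -0.0239 with library totals and -0.0104 without both (-0.0516 to 0.15); Cdk6 to -0.0674 with library totals, -0.13 with voom and -0.13 without both, where it passed (adjusted p = 0.0434, edgeR) (-0.22 to 0.17); Trp63 to 0.12 without both (-1.58 to 0.0919). Rb1, Cdk4, Ccne2 and Mdm4 passed with limma (adjusted p of 0.00293, 0.0089, 0.000243 and 0.0152) and without both libraries numbered 1 (0.00561, 0.00178, 0.000425 and 0.0189, edgeR). Library totals alone shifted the median of all genes by -0.08.

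With a replicate block, 2232 and 2065 genes passed, 3 of the 10 genes rose and 1 fell, and turnover had 1 higher. No label used here says that the numbers pair the samples. Deviations of same-numbered libraries correlated at 0.0635, 0.0161 and 0.0121. 4T1 replicate 1 correlated best with CTM replicate 1, but 4T1 replicates 2 and 3 did so with CTM replicates 3 and 2, at 0.0178 and 0.0578. Correlations this small, with 3 libraries in each group, cannot show whether samples were paired. Depth limits what can be said of Cdkn1c, Cdkn2a and Cdkn2b. The SE of Ccnd1 and Cdkn1a fell from 0.33 and 0.34 to 0.073 and 0.079 without 4T1 replicate 1. That fit keeps only 4T1 replicates 2 and 3, which were close to each other, so its SE may measure technical spread.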

Other observations

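Genes whose names resemble those of the 10 genes were looked up after the results were seen. Cdkn3, a phosphatase gene for cyclin-dependent kinases, measured 15.6, 29.9 and 31.6 CPM in the 4T1 libraries and 9.74, 14.3 and 12.8 CPM in the CTM libraries, and fell 2.09-fold (adjusted p = 0.0321 by edgeR). Trp53bp2, which encodes the p53-binding protein ASPP2, measured 62.2, 72.1 and 74.7 CPM in 4T1 and 130, 102 and 98.1 CPM in CTM, and rose 1.58-fold (adjusted p = 0.0124 by edgeR). Cdkn2aipnl fell 1.54-fold and Trp53i11 fell 1.34-fold. Trp53inp2, an autophagy gene, measured 101 CPM in 4T1 replicate 1 against 32.0 and 30.0 CPM in replicates 2 and 3, and 83.0, 70.8 and 71.9 CPM in CTM, so its groups overlapped and it did not pass (adjusted p = 0.482 by edgeR). Ccndbp1 and Cdkn2aip had higher values in all 3 CTM libraries but missed the threshold, with adjusted p of 0.0525 and 0.0767.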
